A study of Mus musculus with 7 samples.

Results

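Extracellular WNT antagonists are secreted or surface proteins that keep WNT ligands from their receptors. The set described here holds 10 genes: Dkk1, Dkk2, Dkk3, Sfrp1, Sfrp2, Frzb, Wif1, Kremen1, Notum and Apcdd1. They were chosen by gene name, with every non-control probe that carries one of those names, and no measured value entered that rule. Earlier results of these data were, however, known when the genes were chosen. All 10 genes were found, on 11 of the array's 55681 non-control probes, because Kremen1 has 2 probes and each other gene has 1. All RNA was from the forelimb at embryonic day 11.5, in mice of the C57/Bl6 background. The labels name no allele and no treatment in either group. The AER (apical ectodermal ridge), a strip of tall epithelium along the edge of the limb bud, was measured on 3 arrays, and the posterior limb surface ectoderm, the labelled control, on 4. Each array held RNA of a pool of 2 to 3 mice, and 75 ng of RNA was labelled with the dye Cy3.

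WNT ligands bind a Frizzled receptor together with the co-receptor LRP5 or LRP6, and beta-catenin then enters the nucleus and turns on target genes. Antagonists act at different steps: Dickkopf proteins hold the LRP co-receptors, secreted Frizzled-related proteins and WIF1 bind the ligands themselves, and NOTUM removes the lipid that a WNT ligand needs for binding. In the limb bud, WNT signals from the ectoderm help to form and keep the AER, and the AER in turn sends FGF signals to the mesenchyme under it.

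The 7 arrays shared 1 slide and 1 scan time. Each array's 75th percentile, in units of processed signal, was 341 to 563 in the AER group and 257 to 444 in the ectoderm group, and between 47.6% and 54.2% of probes were well above background. Repeated spots spread more on AER replicates 1 and 2 (SD 0.180 and 0.175, log2) than on the other arrays (0.0573 to 0.0628). Of 20826 genes tested, 3266 passed an adjusted p of 0.05 in limma's moderated test, or 15.7%, and the median difference over all genes, AER minus ectoderm, was -0.08 (log2). All p-values measure the spread between these pools.

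Genes of the AER and of epithelia in general were higher on the AER arrays, whereas limb mesenchyme genes were higher on the arrays labelled ectoderm. Of 15 known AER genes tested, 14 were higher in the AER and 1 did not pass, with a median difference of 3.38 (log2). Fgf17, Sp9 and En1 were at background on every ectoderm array. Among 15 pan-epithelial genes the AER was higher for 13 and 2 did not pass, with a median of 1.79, and 14 of them were above background on all ectoderm arrays. Of 15 limb mesenchyme genes, 12 were lower in the AER and 3 did not pass, with a median of -2.20. The summed signal of the mesenchyme genes was 240 to 278 times the array's 75th percentile in the AER group and 500 to 784 times in the ectoderm group, and 12 of the 15 were above background on all AER arrays. All 5 muscle progenitor genes tested were lower in the AER, with Myf5 and Des at background on all AER arrays, and 3 of 5 cartilage and tendon genes were lower, with Matn1, Tnmd and Kera at background there and Matn1 and Tnmd on all ectoderm arrays too. The endothelial, erythroid and macrophage lists had 0 genes past the threshold by limma, and 0, 2 and 0 genes at an unadjusted p under 0.05. Of 5 neural, Schwann and melanoblast genes, 2 were higher in the AER: Tubb3 by 1.80 and Dct by 4.71 (log2), the latter above background on 3 of 3 AER arrays and 1 of 4 ectoderm arrays. The mean of that list was -2.13 to -1.72 on AER arrays and -3.18 to -2.50 in the ectoderm group, and its part in the higher antagonist signals was not tested. Of 5 immediate-early and heat-shock genes, 1 was higher, Atf3 by 1.40. In these bulk samples, fewer cells of a type and less RNA per cell cannot be told apart.

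Of the 10 antagonists, 8 differed between the tissues at an adjusted p of 0.05, against 15.7% of all genes. Dkk1, Kremen1 and Notum were higher in the AER, but none of these 3 calls was kept when the arrays were centred on pan-epithelial genes, where Kremen1 and Notum fell slightly below 0. That centring sets the mean of those genes equal on every array, and it moved the difference of every gene down, with a median shift of -1.82 (log2), so genes already lower could only become lower still. Dkk2, Sfrp1, Sfrp2, Wif1 and Frzb were lower in the AER. Dkk3 and Apcdd1 did not pass the test. The counts are 3 higher against 7.03% of all genes and 5 lower against 8.65%, and the median difference of the 10 genes was -0.48 (log2) beside -0.08 over all genes. For 9 genes no AER array overlapped any ectoderm array, Apcdd1 being the exception, against 30.3% of all genes. All 10 genes passed the filter on dim probes, Dkk2 through its ectoderm arrays alone. Because the set was chosen with earlier results of these data known, these counts are not independent of them.

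**Figure D1:**
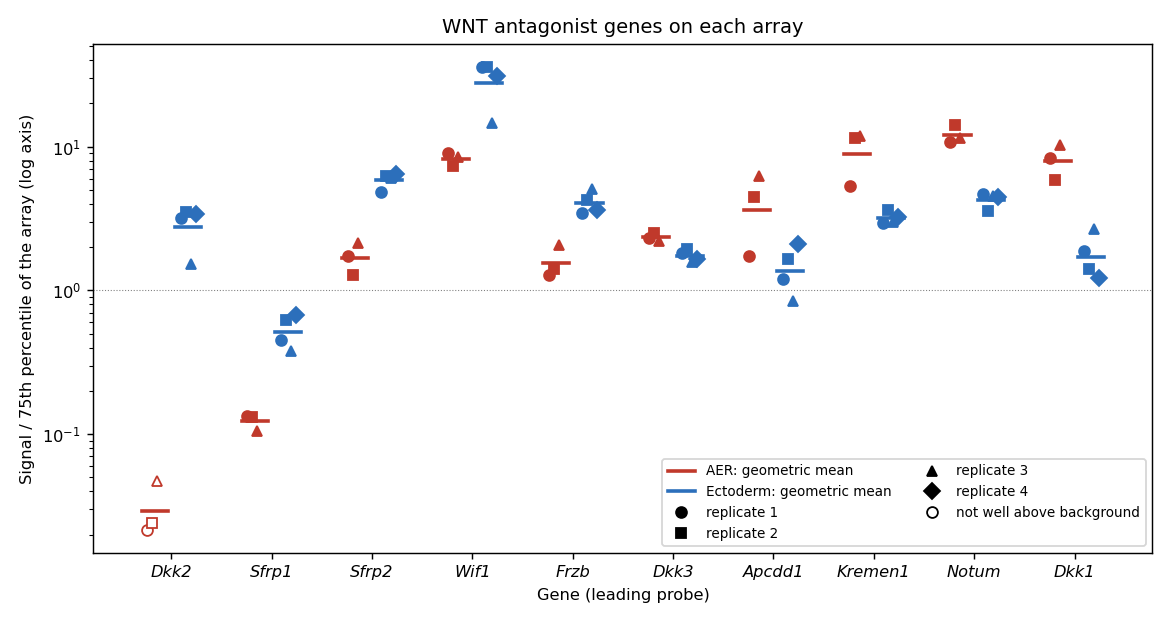
Signal of each antagonist's leading probe on the 3 AER arrays (red) and 4 ectoderm arrays (blue), as a multiple of the array's 75th percentile on a log axis; lines are geometric means and open symbols were not well above background. Dkk2 lies near background on all 3 AER arrays and at 1.53 to 3.52 on ectoderm arrays; Kremen1, Notum and Dkk1 lie higher on every AER array, and when arrays are centred on pan-epithelial genes Kremen1 and Notum fall below 0 and Dkk1 is at 0.40 (log2), with none of the 3 past the threshold.

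The plot of signals by array orders the genes by their difference. Signals are given below as multiples of the array's own 75th percentile, so 1 is that percentile, and heights of different probes on the plot are not a comparison of transcript levels.

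The Dickkopf genes went in opposite directions. Dkk1 encodes a secreted inhibitor that takes LRP5 and LRP6 away from the WNT receptor complex. Its signal was 8.30, 5.86 and 10.3 on the AER arrays and 1.87, 1.42, 2.67 and 1.22 on the ectoderm arrays. The lowest AER array was thus above the highest ectoderm array. The difference was 4.64-fold (95% interval 2.89 to 7.46; log2 2.22, SE 0.30; adjusted p = 0.00142 in limma), the 253rd highest of 20826 genes. Under the centring on pan-epithelial genes it was 0.40 (log2), with an adjusted p of 0.297 in limma.

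Dkk2 encodes a related protein that also binds LRP6 and that can inhibit or weakly activate the pathway depending on the partners present. Its signal was 3.17, 3.52, 1.53 and 3.41 on the ectoderm arrays, all 4 well above background. On the AER arrays it was 0.0217, 0.0241 and 0.0475, and 0 of 3 were well above background. Each AER array was raised to its own detection limit, the lowest signal that still counted as above background. Dkk2 was then 73.1-fold lower in the AER. That value holds for the processed signal alone and is not a lower bound under other background corrections. The fitted difference was -6.57 (log2, SE 0.37, with an adjusted p of 2.36e-05 in limma), the 16th lowest of all genes tested. Dkk2 passed the filter on dim probes through the ectoderm arrays alone, and its AER values are background readings. The SE, p and rank rest on those readings and do not measure how far the transcript differs. The fitted size rests on the background correction. It was 15.2-fold with the normexp correction and 14.4-fold in the authors' processed values, and it passed the threshold in both. Ectoderm replicate 3 had the lowest Dkk2 signal of its group, 1.13 (log2) below the mean of the other ectoderm arrays.

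Dkk3, a Dickkopf-family protein whose effect on WNT signalling varies with the cell, differed least of the 10. Its signal was 2.32, 2.50 and 2.22 on the AER arrays and 1.83, 1.95, 1.57 and 1.66 on the ectoderm arrays. The groups did not overlap, but the difference of 1.34-fold (95% interval 1.07 to 1.69; log2 0.43, SE 0.14) did not pass the test (adjusted p = 0.0818 in limma). It passed with the normexp correction (0.60, adjusted p = 0.033 in limma), with the authors' processed values (0.60, adjusted p = 0.020) and with the 75th percentile taken over probes that every array detected (0.53, adjusted p = 0.042). Under the centring on pan-epithelial genes it was lower in the AER (-1.39, adjusted p = 5.49e-05 in limma). That centring called 96.6% of all genes and put their median at -1.90, so this call says little about Dkk3.

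Kremen1 encodes a membrane receptor that binds Dickkopf proteins together with LRP6 and clears the complex from the cell surface. Its brighter probe read 5.31, 11.4 and 11.8 on the AER arrays and 2.93, 3.62, 3.01 and 3.22 on the ectoderm arrays. The ectoderm arrays lay close together (SD 0.14, log2), whereas AER replicate 1 was 1.13 below the mean of the other AER arrays. The difference was 2.81-fold higher in the AER (95% interval 1.81 to 4.37; log2 1.49, SE 0.28; adjusted p = 0.00767 in limma), and it was -0.33 with no call under the centring on pan-epithelial genes. The other Kremen1 probe, 18278 bases away on the same strand, read 0.125, 0.249 and 0.223 on the AER arrays and 0.0349, 0.0812, 0.0855 and 0.0369 on the ectoderm arrays. It was above background on 3 of 3 AER arrays and on 2 of 4 ectoderm arrays. Its difference of 3.49-fold (log2 1.80, SE 0.39) had the same direction and passed at the probe level, with an adjusted p of 0.0162 in limma, where 15.0% of 28280 probes passed and 6.98% were higher. With the normexp correction that dim probe differed by 1.62-fold.

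The difference for each gene is set out in the plot with intervals, together with 2 other ways of scaling the arrays. Dkk1 is above 0 in all 3, without a call under the centring on pan-epithelial genes, and Dkk3, Apcdd1, Kremen1 and Notum fall below 0 under it. That centring lowers the median difference over all genes to -1.90. It shifts genes by nearly the same amount (-1.89 to -1.75), so these 4 genes lie above that median as they did before it.

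**Figure D2:**
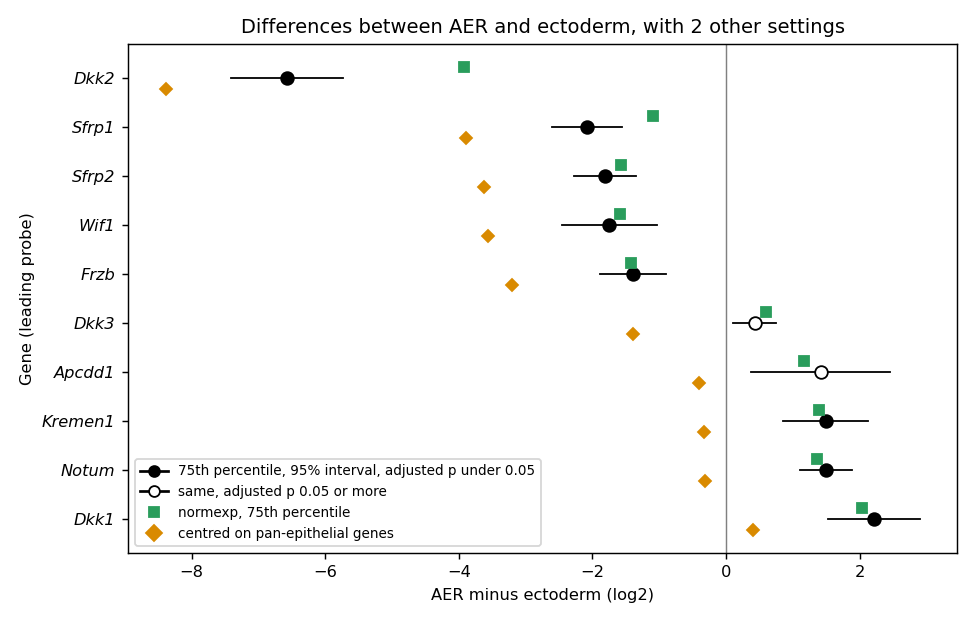
Difference between AER and ectoderm (log2) of each antagonist's leading probe: circles with 95% intervals are the values after scaling to the 75th percentile (filled, adjusted p under 0.05), squares use the normexp correction and diamonds centre the arrays on pan-epithelial genes. Dkk2 has the largest difference, -6.57, and Kremen1, Notum, Apcdd1 and Dkk3 lie right of 0 with circles and left of 0 with diamonds.

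To show what was measured, the first 30 bases of 8 probes are printed as the array design gives them, all in lower case because no base is singled out. They include the related Dickkopf and Frizzled-related genes, where a shared stretch could let one transcript reach another's probe, and both Kremen1 probes.
Dkk1: tactgtgttgtaaatcctcagtgtggcact
Dkk2: tcagagtgatgatgtcatcagaagtttata
Dkk3: gcctgtaaatcgcatctgaagataccacag
Sfrp1: ttaaaatagtcattccggagagtcagggaa
Sfrp2: tcggcatctaagtcttcaaacatttcgttg
Frzb: gtgcaccagggtgttatttaacagaggtat
Kremen1, brighter probe: agcagggatatgactttggacaacaaggct
Kremen1, dimmer probe: atggagtcaggctatgcctgcttctgtggg
Over the whole probes, the longest run of bases shared by any 2 of the 11 member probes was 9 bases, among 55 pairs. Probes were compared with each other and not with whole transcripts, so this cannot show whether a related transcript reaches a probe. Per the array files, on mm9, the probes lie at chr19:30621424-30621483 for Dkk1, chr3:131842357-131842416 for Dkk2, chr7:119259556-119259615 for Dkk3, and chr11:5091749-5091808 and chr11:5110027-5110086 for the brighter and dimmer Kremen1 probes. The exon or untranslated region under each probe was not looked up.

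Dkk1 and Dkk2 stand at opposite ends of the set, so the 250 bases before the start of each gene are shown, from RefSeq on GRCm38.p6 and on the strand of the gene. Capitals mark matches to CTTTGAA, 1 form of the TCF/LEF binding motif, and to TATAAA, the TATA box. CTTTGAT was searched too, all 3 on both strands, and none overlaps another here.
Dkk1, chr19:30549497-30549746, minus strand: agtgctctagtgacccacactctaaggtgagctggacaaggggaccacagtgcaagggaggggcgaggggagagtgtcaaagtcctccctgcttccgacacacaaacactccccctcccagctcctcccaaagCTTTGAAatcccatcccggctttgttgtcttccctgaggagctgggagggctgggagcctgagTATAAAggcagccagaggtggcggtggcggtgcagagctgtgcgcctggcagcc
Dkk2, chr3:132085042-132085291, plus strand: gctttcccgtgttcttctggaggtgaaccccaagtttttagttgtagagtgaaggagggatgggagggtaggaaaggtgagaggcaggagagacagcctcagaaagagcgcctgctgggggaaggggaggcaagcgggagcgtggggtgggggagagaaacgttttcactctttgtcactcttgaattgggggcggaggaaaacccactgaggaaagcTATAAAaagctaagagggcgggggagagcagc
The Dkk1 window holds CTTTGAA from 117 to 111 bases before the start and TATAAA from 54 to 49 bases before it. The Dkk2 window holds TATAAA from 32 to 27 bases before the start and no match to the other motifs. Promoters were given for 5 of the 10 genes. Of the other 3, Wif1 had TATAAA on the reverse strand 232 to 227 bases before the start, and Sfrp2 and Frzb had no match. Of 32851 promoter windows of this length, 4.46% held CTTTGAA, 3.21% CTTTGAT and 12.4% TATAAA. These are matches of letters and were not tested as binding sites.

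The genes of 4 secreted proteins that bind WNT ligands were lower in the AER: Sfrp1, Sfrp2, Frzb and Wif1. The first 3 are secreted Frizzled-related proteins, which carry a domain like the ligand-binding part of a Frizzled receptor. Sfrp1 read 0.134, 0.131 and 0.105 on the AER arrays and 0.451, 0.620, 0.377 and 0.678 on the ectoderm arrays, with no overlap. The difference was 4.22-fold (95% interval 2.93 to 6.06; log2 -2.08, SE 0.23; adjusted p = 0.000492 in limma). With the normexp correction it was 2.14-fold, and in the authors' processed values 2.03-fold.

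Sfrp2 read 1.73, 1.29 and 2.12 on the AER arrays and 4.84, 6.22, 6.09 and 6.50 on the ectoderm arrays. Its lowest ectoderm array was well clear of its highest AER array, and the ectoderm SD was 0.19 (log2). The difference was 3.50-fold (95% interval 2.54 to 4.82; log2 -1.81, SE 0.20; adjusted p = 0.000518 in limma).

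Frzb, whose protein is also called sFRP3 and was first studied in cartilage, read 1.27, 1.40 and 2.07 on the AER arrays and 3.45, 4.28, 5.05 and 3.63 on the ectoderm arrays. The groups did not overlap, and the difference was 2.63-fold (95% interval 1.86 to 3.71; log2 -1.39, SE 0.22; adjusted p = 0.00303 in limma). Frzb was highest in ectoderm replicate 3, which was the lowest of its group for Dkk2, Sfrp1 and Wif1.

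Wif1 encodes a secreted protein that binds WNT ligands through a WIF domain. It read 8.99, 7.31 and 8.46 on the AER arrays and 35.7, 35.8, 14.6 and 31.2 on the ectoderm arrays. The AER arrays lay close together (SD 0.15, log2), and ectoderm replicate 3 was 1.22 below the mean of the other ectoderm arrays while staying above all AER arrays. The difference was 3.36-fold (95% interval 2.05 to 5.51; log2 -1.75, SE 0.31; adjusted p = 0.00603 in limma), and without ectoderm replicate 3 it was -2.05 (adjusted p = 0.00014).

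The probes lie on mm9 at chr8:24559438-24559497 for Sfrp1, chr3:83577864-83577923 for Sfrp2, chr2:80252582-80252641 for Frzb and chr10:120537079-120537138 for Wif1. The 5 lower genes had the same direction as the limb mesenchyme list, whose per-array mean was 1.71 to 2.13 in the AER and 4.36 to 4.98 in the ectoderm (log2). The muscle progenitor mean was -5.19 to -4.23 and -1.33 to -0.53, and the cartilage and tendon mean was -2.37 to -2.08 and 0.19 to 0.27. The part of these cells in the lower antagonist signals was not tested. On ectoderm replicate 3 the mesenchyme mean was 0.59 and the muscle progenitor mean 0.74 below those of the other ectoderm arrays, and the known AER mean was 1.11 above them.

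**Figure D3:**
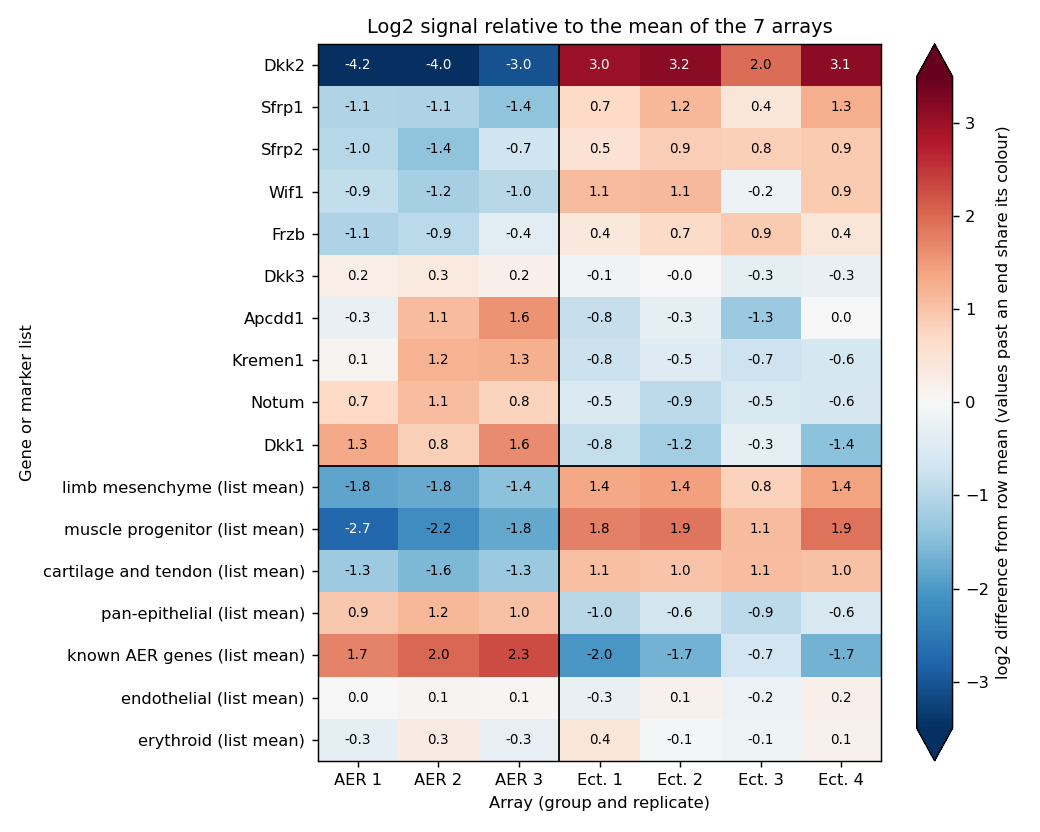
Log2 signal of each antagonist (upper rows) and mean of each marker list (lower rows) on the 7 arrays, relative to the mean of that row; red is above and blue below the mean of the row, and values past an end of the scale share its colour. Ectoderm replicate 3 has lower Dkk2 and Wif1 and higher known AER genes than the other ectoderm arrays.

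The heat map of arrays shows the antagonists above the marker lists. On AER replicate 1, Apcdd1 and Kremen1 were below the other AER arrays by 1.61 and 1.13 (log2), and on ectoderm replicate 3 Dkk1 was 0.85 above the other ectoderm arrays. The endothelial and erythroid means overlapped between the groups.

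Notum and Apcdd1 are inhibitors that WNT signalling itself turns on in several tissues. Notum encodes a secreted enzyme that strips the lipid from WNT ligands. It read 10.8, 14.2 and 11.4 on the AER arrays and 4.68, 3.55, 4.57 and 4.44 on the ectoderm arrays, and each group lay within an SD of 0.21 and 0.18 (log2). The difference was 2.82-fold higher in the AER (95% interval 2.16 to 3.68; log2 1.50, SE 0.17; adjusted p = 0.000527 in limma), and under the centring on pan-epithelial genes it was -0.32 with no call (adjusted p = 0.213). The Notum probe lies at chr11:120515209-120515268 on mm9.

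Apcdd1 encodes a membrane protein that binds WNT ligands and LRP5. It read 1.74, 4.50 and 6.23 on the AER arrays and 1.20, 1.66, 0.841 and 2.10 on the ectoderm arrays. AER replicate 1 lay inside the range of the ectoderm arrays, and the other AER arrays lay above it. The difference was 2.67-fold (95% interval 1.30 to 5.50; log2 1.42, SE 0.46) and did not pass the test (adjusted p = 0.0722 in limma). Without AER replicate 1 it was 1.95 (adjusted p = 0.0131), and under the centring on pan-epithelial genes it was -0.40.

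The arrays sat in 2 rows of the slide, with 1 AER and 3 ectoderm arrays in the first and 2 AER arrays and 1 ectoderm array in the other. All 10 genes had the same direction in both rows. Each row has 1 array in one of its groups, so a fit within a row assumes that this lone array varies like the other group, and its calls do not measure the spread of that group. Such fits called 2 of the 10 in row 1 (Dkk2, adjusted p = 0.0157 in limma, and Sfrp2, 0.0422), against 3.14% of all genes, and 6 in row 2, against 6.67%. Kremen1 differed by 0.74 in row 1 and 1.85 in row 2, and Frzb by -1.73 and -1.09 (log2). With the row as a block 8 of the 10 passed, against 11.9% of all genes. Leaving out any 1 array left 8 or 9 past the threshold, against 10.6% to 15.7% of all genes, and none of the 8 called genes was lost.

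The other WNT pathway genes, taken from lists by role, moved in both directions as well. Over all genes tested, 7.03% were higher in the AER and 8.65% lower, and the counts below stand beside these shares. The lists held 12 other extracellular and membrane inhibitors that could be tested, of which 3 were higher in the AER, 3 lower and 6 did not pass, with a median of -0.04 (log2). Rnf43 and Znrf3, ubiquitin ligases that remove Frizzled receptors from the surface, were 6.16-fold (adjusted p = 0.00016 in limma) and 2.83-fold (0.00106) higher, and Znrf3 turned to -0.32 under the centring on pan-epithelial genes. Shisa2, which holds Frizzled receptors inside the cell, was lower, at -3.42 (log2; adjusted p = 0.000212 in limma), and so was Igfbp4, an IGF-binding protein that can also inhibit WNT signalling, at -1.98 (0.00041).

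Of 13 WNT ligands tested, 5 were higher, 4 lower and 4 did not pass, with a median of 0.07. Wnt6, an ectodermal ligand, and Wnt5a, which mostly acts without beta-catenin, were higher by 2.19 and 2.06 (log2), and under the centring on pan-epithelial genes they were at 0.37 and 0.24 with no call. Wnt9a and Wnt9b were lower, at -3.01 and -2.05, and Wnt9a was at -1.59 with the normexp correction. Of 17 receptors and co-receptors, 4 were higher, 3 lower and 10 did not pass, with a median of -0.01. Fzd10 and Lrp4 were higher by 1.76 and 1.65, turning to -0.062 and -0.17 under the centring on pan-epithelial genes, and Fzd9 and Fzd2 were lower, at -2.00 and -2.05. Lrp5 and Lrp6, named outside the rule because Dickkopf proteins bind them, differed by -0.01 (SE 0.18; adjusted p = 0.973 in limma) and 0.06 (SE 0.15; 0.814).

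R-spondins raise WNT signalling by removing Rnf43 and Znrf3 from the surface. Of 6 R-spondin and receptor genes tested, 1 was higher, 4 lower and 1 did not pass, with a median of -1.80. Rspo2 was 44.4-fold higher, or 17.6-fold with the normexp correction, whereas Rspo3 and the receptor gene Lgr5 were lower, at -2.42 and -3.30 (log2), Lgr5 at -2.59 with that correction. Of 7 genes for WNT secretion and glypicans, 1 was higher, 2 lower and 4 did not pass, with a median of -0.14. Wls, which carries WNT ligands to the surface, was higher by 1.48, turning to -0.34 under the centring on pan-epithelial genes, and the heparan sulphate proteoglycan genes Gpc3 and Gpc6 were lower, at -1.11 and -0.62. Gpc6 passed in 14 of the 22 alternatives, with an adjusted p of up to 0.730 in limma.

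Of 14 WNT/beta-catenin target genes tested, 8 were higher, 3 lower and 3 did not pass, with a median of 0.75. That median was 0.33 with the normexp correction and 0.37 in the authors' processed values. The receptor gene Edar was at least 4.46-fold higher, with 0 of 4 ectoderm arrays above background (adjusted p = 1.34e-05 in limma). That bound holds for the processed signal alone: the fitted difference of Edar was 2.26-fold with the normexp correction and 2.41-fold in the authors' processed values. Edar passed the filter on dim probes through the AER arrays alone, so its p rests on ectoderm values at background. Rnf43 is on this list too. Sp5, a transcription factor gene, and Lgr5 were lower, at -3.68 and -3.30, and Sp5 was at -2.67 with the normexp correction. The medians of these lists stand beside -0.08 over all genes, and under the centring on pan-epithelial genes every list median was below 0, as was that of all genes at -1.90.

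**Figure D4:**
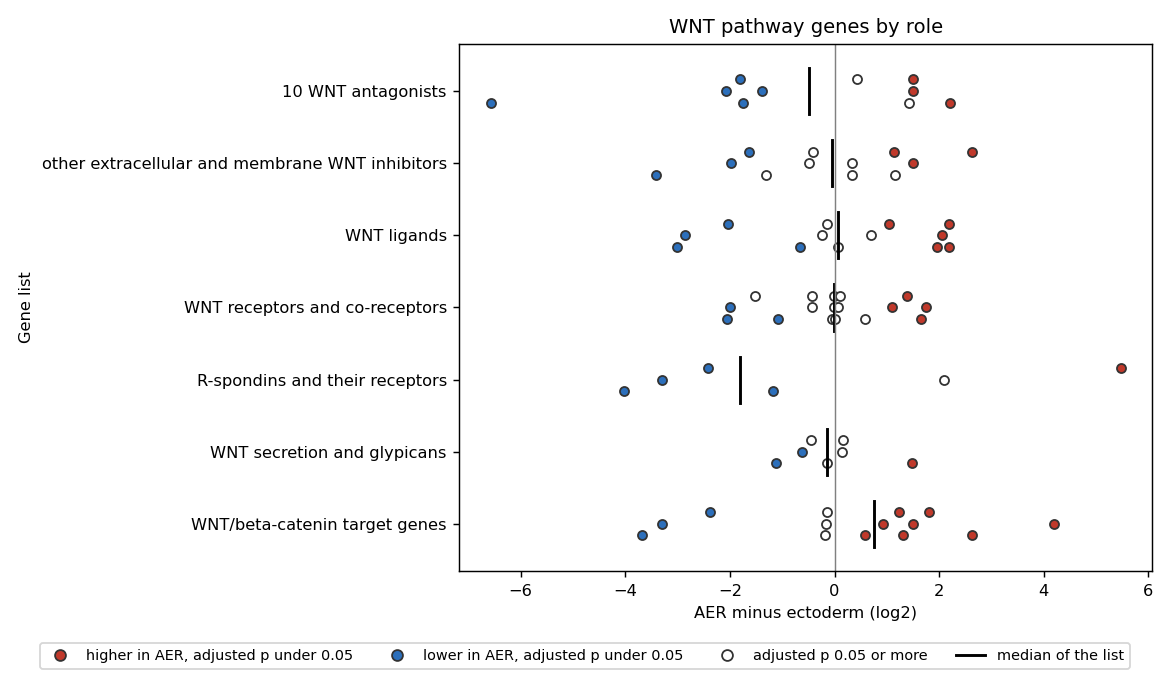
Difference between AER and ectoderm (log2) of each tested gene in the 10 antagonists and 6 other WNT pathway lists; filled circles passed an adjusted p of 0.05 (red higher, blue lower in AER) and bars are list medians. The antagonists run from -6.57 to 2.22 and each list has genes on both sides of 0; centred on pan-epithelial genes, Kremen1 and Notum and 13 of the 20 higher genes of the other lists fall below 0.

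The plot of pathway lists puts the antagonists beside genes of the other roles. For each antagonist past the threshold, the 2 genes with the most similar profile over the 7 arrays were found, by the root-mean-square distance between log2 profiles centred on their own means. Dkk1 was closest to Cyp26a1, which encodes a retinoic acid-degrading enzyme (distance 0.201), and to Slc25a33 (0.240). Dkk2 was closest to Pcdh10, a protocadherin gene (0.176), and Smoc2 (0.296), and Sfrp1 to Hrc (0.0954) and the collagen gene Col6a2 (0.102). Sfrp2 was closest to the WNT receptor gene Fzd9 (0.112) and Dact3 (0.142), Frzb to Rbp4 (0.104) and Tob1 (0.170), and Wif1 to Lhfp (0.131) and Zcchc12 (0.177). Kremen1 was closest to the LRP-family gene Lrp4 (0.134) and Trpv4 (0.159), and Notum to Ern1 (0.103) and Ttc7 (0.136). These distances describe 7 arrays and carry no test.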

How the data were processed

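RNA of 3 AER and 4 posterior ectoderm pools was hybridised to 1-colour Agilent arrays. The deposited scanner files hold a processed signal, an intensity on a linear scale that Agilent software had background-subtracted without scaling between arrays, per the file headers. They also hold other columns, spot flags, per the file headers. A deposited matrix holds log2 values; for it the authors used limma (no version), per the submitters' processing notes. Normexp (offset 50) with quantile normalization gave the authors' values to within 0.000108.

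Control and outlying spots were dropped and spots of 1 probe averaged. From log2 processed signals, the 75th percentile of the array's non-control probes was taken off. Probes well above background on at least 3 of 7 arrays were kept (28280, 50.8%), and each gene took its brightest probe. Names came from RefSeq accession (26294 probes), symbol (2049), older symbol (355) or the file (26983). Groups were compared with limma 3.58.1 (lmFit, eBayes, two-sided; R 4.3.3 with the data.table package, version 1.17.8), with group as the single term, 5 residual and 3.50 prior degrees of freedom, and Benjamini-Hochberg adjustment over 20826 genes. In simulated data of that size, 78% of changes of 1.5 and 94% of changes of 3 (log2) were recovered. The simulation used independent noise and changed far fewer genes than were called here, so these shares are not the power of the real comparison. Python 3.11.15 with pandas 2.3.3 and numpy 2.4.6 read the files, and matplotlib 3.10.9 drew the plots.

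The members and gene lists were chosen with earlier results of these data known. Named are all members, from each other WNT list the 2 higher and the 2 lower genes with the smallest p, if past the threshold, marker genes at background, and the 2 genes most like each called member. The 22 alternatives covered background correction, scaling, filters, probe choice, array weights, slide row, replicate number, averaging ectoderm replicates 2 and 4, and leaving out each array.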

Additional observations from a re-analysis of the deposited data

Results flagged for a closer look

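The signal of ectoderm replicate 3 stood apart from the other ectoderm arrays for 2 of the 11 member probes, by Dixon's test on groups of 4, past its 95% critical value. On the log2 scale relative to the 75th percentile, Dkk2 was at 0.62 on that array, with a gap to the nearest array of 0.871 of the range of the group. Wif1 was at 3.87 on the same array, with a gap of 0.847. Both values were low for their group and above all AER arrays. Chance flags about 1 group in 20, and the probes share arrays.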

How the results depend on the processing

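Over the 22 alternatives, the 5 lower antagonists kept their direction, which the centring could not turn, and Dkk2 and Sfrp2 passed in each. Within slide row 1 limma called 653 genes (239 higher, 414 lower), 2 antagonists (0 higher, 2 lower) and 15 genes of the other WNT lists (6 higher, 9 lower), where the full set gave 3266, 8 and 38. The AER group of row 1 was 1 array, so calls there do not measure the spread between AER pools. Within row 2 it called 1390 genes (547 higher, 843 lower), with 12 higher in the other lists; each row has fewer arrays and 1 array in one group. Centring on pan-epithelial genes gave 20125 genes (179 higher, 19946 lower), 0 antagonists higher (0 also at an unadjusted p under 0.05) and 6 lower, and 3 higher and 49 lower in the other lists. It turned Kremen1 to -0.33, Notum to -0.32, Apcdd1 to -0.40, Dkk3 to -1.39, Fzd10 to -0.062, Lrp4 to -0.17, Znrf3 to -0.32 and Wls to -0.34; the cause was not tested. The higher share of called genes was 44.8%, but 57.4% with the percentile taken over probes that every array detected and 0.889% with the centring. Leaving out 1 array gave 1179 to 1916 lower genes, the fewest without ectoderm replicate 4. For replicate numbers 1, 2 and 3, the r between the 2 arrays of that number was low (-0.03, 0.19 and 0.13). The best partner was the ectoderm array of the same number for numbers 2 and 3 and not for 1. These values do not settle whether the numbers pair the arrays. A replicate block, over 6 arrays, gave 2444 genes and 9 antagonists, with Apcdd1 added at 1.62 (adjusted p = 0.037 in limma). The folds of dim probes (Dkk2, Sfrp1, Edar, Wnt9a, the dimmer Kremen1 probe) are limited by their height over background.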

Other observations

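Of the other inhibitors listed, Dkk4, Sfrp4, Sfrp5 and Cer1 were too dim to be tested. Dkk4, a Dickkopf gene known as a WNT target in skin placodes, was well above background on AER replicates 2 and 3 and on no other array. Its signal was 0.0467, 0.0767 and 0.0871 times the 75th percentile on the AER arrays and 0.0119 to 0.0255 on the ectoderm arrays. Sfrp5, a secreted Frizzled-related gene, was well above background on ectoderm replicates 1 and 2 alone, at 0.219 and 0.0713. Sfrp4 and Cer1 were not well above background on any array. Lgr6, an R-spondin receptor gene, was well above background on AER replicates 2 and 3 alone, at 0.0776 and 0.254. None of these was compared between the groups.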
